A study of Mus musculus with 3 samples.

Results

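The 10 genes described here encode the NF-kB transcription factor subunits and the IkB proteins that bind them, and were chosen by name among the 43472 rows of the expression table. They comprise 5 subunit genes (Nfkb1, Nfkb2, Rel, Rela and Relb) and 5 IkB genes, of which Nfkbia, Nfkbib and Nfkbie encode the classical inhibitors and Nfkbiz and Bcl3 encode IkB proteins that act in the nucleus. All 10 were found in the table. Their transcripts were measured by RNA-seq in primary fibroblasts from the tail tips of C57BL/6 mice, scratched in culture as an in vitro wound and exposed for 5 h to soluble micrograft (MG) together with PD0325901 (1 μM). MG is an extract of disrupted mouse skin, and PD0325901 inhibits the kinase MEK upstream of ERK. The 3 libraries are labelled replicates 1, 2 and 3 of this condition and all received both agents. Untreated and MG-only cells were not analysed here, so the values are levels under MG + PD0325901 and no effect of either agent was computed. Primary cells from a digested tissue may hold other cell types, and the number of animals behind the replicates is not given in the sources used here.

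NF-kB proteins act as dimers. In resting cells most dimers are held in the cytoplasm by classical IkB proteins, and signals from cytokine and Toll-like receptors reach the IKK kinase complex, which marks the IkB for degradation and so frees the dimer to enter the nucleus. Nfkb1 and Nfkb2 encode long precursors whose carboxy-terminal part works as an IkB until it is trimmed off, and Relb pairs mainly with the product of Nfkb2 in the non-canonical branch that the kinase NIK controls. Several genes of the system, Nfkbia among them, are themselves NF-kB targets, which gives the pathway a negative feedback. In skin fibroblasts the pathway is known for driving cytokine and chemokine genes after wounding.

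The deposited values are normalized counts, the reads on a gene divided by 1 size factor per library. The libraries held 22540518, 27037783 and 17244505 reads on genes in replicates 1, 2 and 3. A gene without a read may still hold up to 3, which is between 2.11 and 3.56 normalized counts depending on the library, a limit that covers counting error only. A gene was called detected where every library held at least 10 normalized counts, which 12202 genes did.

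Stretches upstream of the annotated transcription starts are shown first, because NF-kB binds a short DNA motif that lies upstream of several genes of its own system. RefSeq promoters of build GRCm38.p6, each with 250 bases before and 50 after a start, were given for 7 of the 10 genes (not for Nfkb1, Relb and Nfkbiz). They were searched on both strands for the kB consensus GGGRNWYYCC (R is A or G, N any base, W is A or T, Y is C or T). A match was found for 5 of these 7 genes, namely Nfkb2, Rel, Nfkbia, Nfkbie and Bcl3. No stretch in the windows of Rela and Nfkbib fitted this pattern in full. A match was held by 1480 of all 32851 promoters given (4.51%), and by 1388 of all 27025 genes (5.14%). A match describes the letters alone, since binding was not measured in these libraries. The stretches below run 5′ to 3′ in the direction of the gene and end before the first base that GENCODE annotates as an exon of it, with the matches in capitals. Nfkb2 has 3 annotated starts, of which the first is shown. Its window lies inside an annotated exon, so 30 bases at the first match are given. Windows of the later starts, not shown, held the matches GGGACATTCC and GGGACTTTCC. Nfkbia had the widest range between libraries among the 9 detected members. Nfkb2 had the most matches of the subunit genes searched (Nfkb2, Rel and Rela), with 3 windows against 1 each for Rel and Rela. Rel had a match and few reads, and Rela had no match and the narrowest range of the members. Of the searched genes not printed, Nfkbib had no match and spanned 1.83-fold, while Nfkbie and Bcl3 had a match and spanned 1.93-fold and 1.63-fold. A relation between match and range was not tested.
Nfkbia, chr12:55492648-55492897, minus strand: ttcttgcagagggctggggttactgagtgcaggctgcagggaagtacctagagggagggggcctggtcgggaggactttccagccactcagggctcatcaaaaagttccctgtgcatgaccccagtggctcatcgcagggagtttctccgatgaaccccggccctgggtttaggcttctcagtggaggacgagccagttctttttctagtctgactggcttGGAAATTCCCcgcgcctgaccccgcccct
Nfkb2, chr19:46304697-46304726, plus strand: cGGGAATTCCCCccctcggggggccgaaaG
Rel, chr11:23770971-23771219, minus strand: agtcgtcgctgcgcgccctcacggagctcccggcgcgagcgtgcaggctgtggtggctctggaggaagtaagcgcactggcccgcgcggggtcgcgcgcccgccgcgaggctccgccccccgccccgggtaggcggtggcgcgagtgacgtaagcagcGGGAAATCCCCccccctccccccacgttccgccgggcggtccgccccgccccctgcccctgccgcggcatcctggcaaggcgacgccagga
Rela, chr19:5637291-5637482, plus strand: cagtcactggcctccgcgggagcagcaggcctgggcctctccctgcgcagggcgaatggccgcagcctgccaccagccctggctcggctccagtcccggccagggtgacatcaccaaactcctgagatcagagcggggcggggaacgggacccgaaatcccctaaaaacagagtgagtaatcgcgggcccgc
The capitals in Nfkbia read GGGAATTTCC on the opposite strand and began 29 bases before the start. In Nfkb2 the run of capitals holds 2 overlapping matches, of which GGGAATTCCC reads the same on both strands and began 39 bases before the first annotated start. A further match, GGGGCTTTCC, began 11 bases before that start. Only its first base, the last capital G, lies within the stretch shown. In Rel the match GGGAAATCCC began 92 bases before the start and overlapped another match on the opposite strand. Nfkbie held GGGGGATTCC 106 bases before its start, and Bcl3 held GGGACTTCCC on the opposite strand 2 bases after its start.

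Rela was the steadiest and Rel the scarcest of the 10 genes. Rela encodes p65, the subunit with a strong activation domain that forms the canonical dimer with the product of Nfkb1. It lies on chr19:5637483-5648130 (GRCm38, plus strand) and gave 2553 normalized counts in replicate 1, 2374 in replicate 2 and 2848 in replicate 3 (mean 2592 ± 240, SD, n = 3). It spanned 1.20-fold between libraries, and the SD of log2(normalized count + 1) was 0.13, larger than that of 14.5% of the detected genes. Rel encodes c-Rel, a subunit best known from lymphocytes, and lies on chr11:23736847-23770970 (minus strand). It held 10, 39 and 10 reads, or 8.68, 27.5 and 11.9 normalized counts, with exact 95% Poisson intervals of 4.16 to 16.0, 19.5 to 37.6 and 5.68 to 21.8. Replicate 2 was the highest library, its interval overlapped that of replicate 3 but not that of replicate 1, and Rel fell short of the detection minimum in replicate 1. Its mean was 16.0 ± 10.1 normalized counts, and 10.3 without replicate 2. It was the single member that was not detected, so the counts over members below concern 9 genes unless 10 are named.

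Both precursor genes were abundant, at percentiles 74.0 to 87.9 (Nfkb1) and 82.2 to 91.7 (Nfkb2) of the detected genes in a library. Nfkb1, on chr3:135584655-135691547 (minus strand), encodes p105, from which p50 is made, and reached 1520, 1256 and 2649 normalized counts (mean 1808 ± 740). Nfkb2, on chr19:46304320-46312385 (plus strand), encodes p100, from which p52 is made, and reached 2612, 1813 and 3673 normalized counts (mean 2699 ± 933). Replicate 3 was the highest and replicate 2 the lowest library for both genes, with ranges of 2.11-fold and 2.03-fold. Nfkb2 shares 531 of its exonic bases (11.6%) with AC114539.1 and 299 with Psd, both on the opposite strand, and whether reads were counted by strand is not given in the sources used here.

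Relb, the partner of the Nfkb2 product, lies on chr7:19606217-19629438 (minus strand). It was measured at 1065, 485 and 1158 normalized counts (mean 903 ± 365). Replicates 1 and 3 lay close to each other, and replicate 2 was more than 2-fold below both, a range of 2.39-fold.

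Among the classical inhibitors Nfkbia was the most abundant and the most variable. Nfkbia encodes IkBα, the inhibitor that is resynthesised fastest after NF-kB activation, and lies on chr12:55489410-55492647 (minus strand). It was measured at 5462, 2068 and 6037 normalized counts (mean 4522 ± 2145). Replicate 2 was 2.64-fold below replicate 1 and 2.92-fold below replicate 3, and the log2 SD of 0.85 was larger than that of 92.7% of the detected genes. The genes whose centred log2 profiles over the 3 libraries were most like that of Nfkbia, among 9989 genes that averaged 100 normalized counts or more, were Sod3 (root mean square difference 0.021 on the log2 scale) and Ablim1 (0.022). A difference of at most 0.1 was found for 32 genes (0.320%), and with 3 libraries such likeness is a description.

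Nfkbib and Nfkbie were lower and varied less than Nfkbia. Nfkbib encodes IkBβ, lies on chr7:28758251-28767512 (minus strand) and was measured at 723, 581 and 1064 normalized counts (mean 790 ± 248). Nfkbie encodes IkBε, lies on chr17:45555703-45563169 (plus strand) and was measured at 275, 142 and 250 normalized counts (mean 223 ± 70.6). Replicate 2 was the lowest library for both, while the highest was replicate 3 for Nfkbib and replicate 1 for Nfkbie. Nfkbib shares 314 exonic bases (14.5%) with Ccer2 and 42 with Sirt2 on the opposite strand.

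The nuclear IkB genes had narrower ranges. Nfkbiz encodes IkBζ, which works with p50 on secondary response genes such as Il6 and Lcn2. It lies on chr16:55811375-55838899 (minus strand) and was measured at 3923, 2971 and 4201 normalized counts (mean 3698 ± 645), a range of 1.41-fold. Bcl3, which binds p50 and p52 homodimers in the nucleus, lies on chr7:19808462-19822770 (minus strand) and was measured at 246, 285 and 399 normalized counts (mean 310 ± 79.9). Bcl3 was the one detected member whose lowest library was replicate 1, and it shares 161 exonic bases (6.51%) with Gm16175 on the opposite strand. At the library with fewest reads, counting error was 1.68% to 7.04% for the 9 detected genes and 31.6% for Rel, so that the spread of the detected genes between libraries was above their counting error.

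**Figure D1:**
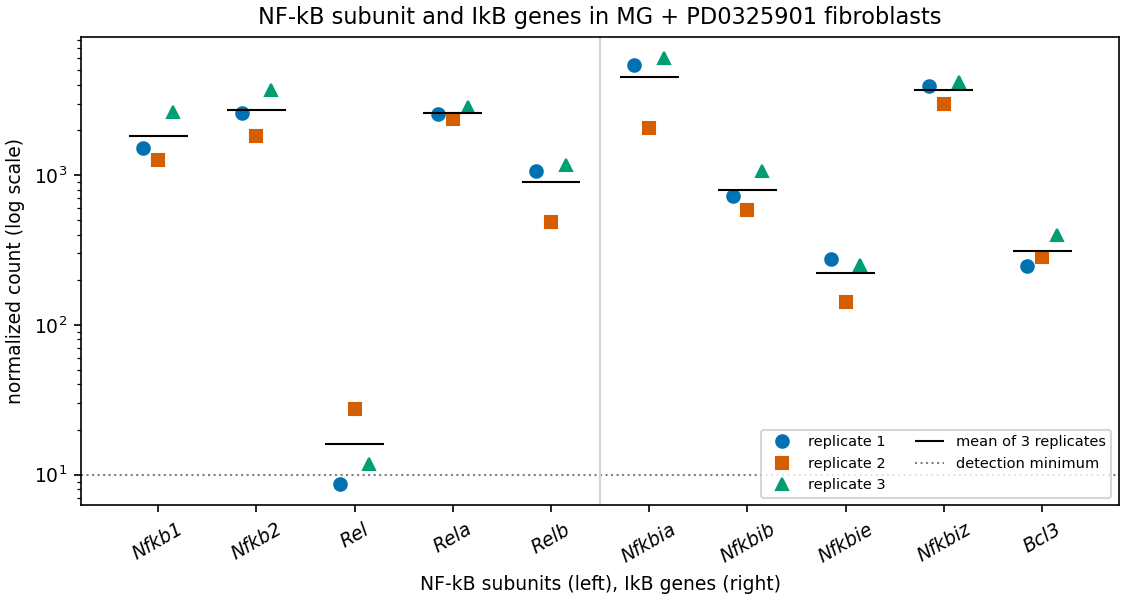
Normalized counts (log scale) of the 5 subunit genes (left) and the 5 IkB genes (right) in each of the 3 MG + PD0325901 libraries, with a bar at the mean and a dotted line at the detection minimum of 10. Replicate 2 is the lowest library for 8 of the 9 detected genes, Rela spans 1.20-fold and Nfkbia 2.92-fold.

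Levels of different genes were compared per kilobase (kb) of exonic length, the union of the exons of each gene. Nfkbia came first at 2809 ± 1332 normalized counts per kb (n = 3), 1.66 to 4.08 times the level of Rela in the same library. It was followed by Rela (844 ± 78.0), Nfkbiz (737 ± 128), Nfkb2 (589 ± 204), Nfkbib (364 ± 114), Relb (232 ± 93.8), Nfkb1 (150 ± 61.4), Bcl3 (125 ± 32.3), Nfkbie (73.1 ± 23.2) and Rel (2.14 ± 1.35). In 8 of the 9 neighbouring pairs the higher gene was higher in all 3 libraries. Nfkb1 and Bcl3 were the exception, as their ratio ran from 0.91 to 1.36 and Bcl3 was the higher in replicate 2. The ranges over libraries did not overlap for Nfkbia and Rela, for Bcl3 and Nfkbie, and for Nfkbie and Rel, while the other neighbours overlapped. The smallest two-sided p that an exact sign-flip permutation of 3 libraries allows is 0.25, so that test can call no pair at this number of libraries, and the order is given as a description.

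The place of Nfkb1 depended on the length used. The union of its exons measures 12061 bases and its longest transcript 4149, and with the longest transcript Nfkb1 moved from rank 7 to rank 5, above Nfkbib and Relb. Rela and Nfkbiz, and Relb and Bcl3, then no longer kept 1 order in every library. The first 4 and the last 3 ranks were the same with both lengths.

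**Figure D2:**
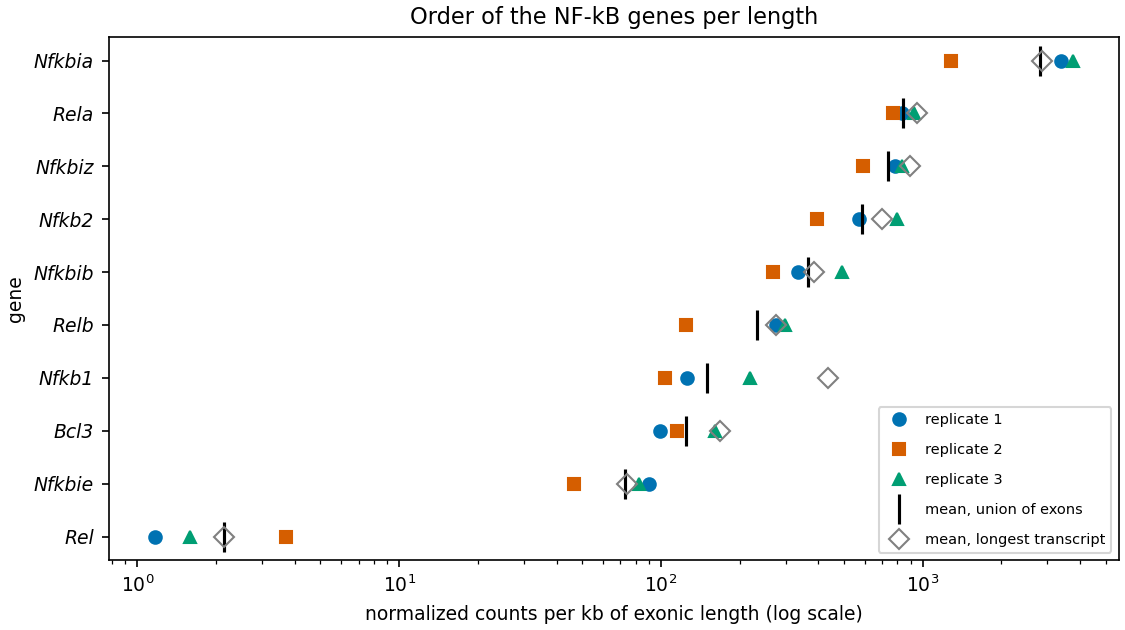
Normalized counts per kb of exonic length (log scale) for the 10 genes, ordered by their mean over the 3 libraries, with the mean per kb of the longest transcript as an open diamond. Nfkbia leads at 2809, Rel is last at 2.14, and Nfkb1 is the gene whose 2 means lie farthest apart.

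Rela and Nfkb2 made up most of the subunit transcripts. Of the summed per-kb level of the 5 subunit genes Rela held 46.1%, 55.2% and 41.2% in replicates 1, 2 and 3 (mean 47.5 ± 7.06%, SD, n = 3). Nfkb2 held 31.8 ± 3.71%, Relb 12.5 ± 3.22%, Nfkb1 8.07 ± 1.49% and Rel 0.133 ± 0.113%. With the longest transcript as length Nfkb1 held 18.0%. The order of the subunits by share was the same in all 3 libraries, and Rela had its largest share and Relb its smallest in replicate 2.

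**Figure D3:**
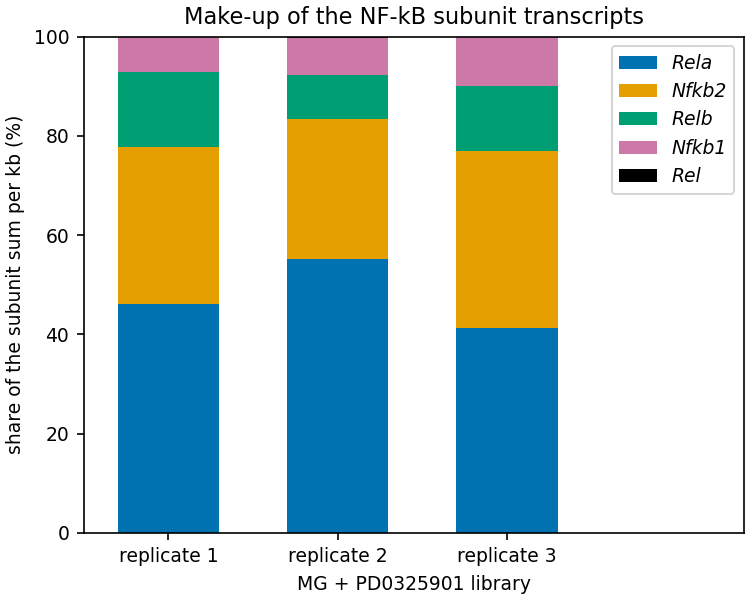
Share of each subunit gene in the summed per-kb level of the 5 subunit genes, in percent, 1 stacked bar per library. Rela is the largest part of each bar (41.2% to 55.2%), and Rel, at 0.133% on average, is too small to be seen.

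Ratios within a library do not depend on its size factor. Nfkbia per kb stood at 4.08, 1.66 and 4.04 times Rela in replicates 1, 2 and 3, so replicate 2 differed from the other replicates in the ratio of these transcripts as well as in level. Proteins were not measured in these libraries, so transcript ratios do not give the balance of inhibitor and subunit proteins. The 3 classical inhibitors summed to 3816, 1599 and 4322 normalized counts per kb and the 5 subunits to 1802, 1401 and 2248, a ratio of 2.12, 1.14 and 1.92. Nfkbia alone held 3392, 1284 and 3749 of the inhibitor sum, and the precursor genes Nfkb1 and Nfkb2 were counted as subunits. With the longest transcript as length the ratio was 1.69, 0.91 and 1.48, so the inhibitor sum was above the subunit sum with both lengths in replicates 1 and 3, and the direction turned in replicate 2. Relb stood at 0.330, 0.162 and 0.321 of Rela. Nfkb2 stood at 4.52, 3.80 and 3.65 times Nfkb1, a mean of 3.99 ± 0.466, which became 1.64 with the longest transcript. Within the 5 IkB genes Nfkbia held 72.2%, 55.7% and 70.5% of the per-kb sum and Nfkbiz 19.4 ± 5.50%.

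Most of the 9 detected genes were low in replicate 2 and high in replicate 3. For 8 of the 9 genes the lowest value came from replicate 2, against 37.3% of all detected genes, with Bcl3 as the exception. Replicate 3 was the highest for 8 of the 9, against 27.9% of all detected genes, with Nfkbie as the exception. Replicate 1 was lowest for Bcl3 and highest for Nfkbie, 1 gene each, against 34.5% and 31.5% of all detected genes. Replicate 2 was the highest for 0 of the 9, against 40.6%, and replicate 3 the lowest for 0 of the 9, against 28.3%. Replicate 2 lowest and replicate 3 highest held together for 7 of the 9, against 15.9%. The median over the 9 genes of the difference in log2(normalized count + 1) between a library and the mean of the other libraries was 0.02 in replicate 1, −0.68 in replicate 2 and 0.69 in replicate 3. Over all detected genes these medians were −0.03, 0.03 and 0.0049. Without replicate 2 the median of replicate 3 was 0.16. The 9 genes were measured in the same 3 libraries and are not independent of each other.

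By size, 4 of the 9 detected genes (Nfkb1, Nfkb2, Relb and Nfkbia) spanned more than 2-fold from the lowest to the highest library, as did 22% of all detected genes. That share rested on replicate 2, since without it 0 of the 9 genes passed 2-fold, where 6.31% of all genes did. Without replicate 1 the count was 4 (12.9% of all genes), and without replicate 3 it was 2 (15.5% of all genes). With the libraries scaled to equal totals it was 2, Relb and Nfkbia, against 22.6% of all detected genes. Relb and Nfkbia lay more than 2-fold below both other libraries in replicate 2, which was so for 3.54% of all detected genes. None of the 9 did so in replicate 1 or in replicate 3, against 1.27% and 1.38% of all detected genes. The differences in replicate 2 on the log2 scale ran from −1.47 for Nfkbia, −1.19 for Relb and −0.88 for Nfkbie to −0.18 for Rela and −0.14 for Bcl3. The median log2 SD of the 9 genes was 0.51, against 0.30 over all detected genes. In edgeR, the biological coefficient of variation had a median of 30.4% over the 9 genes and of 28.8% over 12318 fitted genes. Among the 9 it ran from 22.0% for Rela to 37.5% for Nfkbia. edgeR draws each gene's estimate toward the trend over all genes, so these values lie closer together than the raw spread. The SD was 9.24% of the mean for Rela and 47.4% for Nfkbia. Without replicate 2 the median coefficient over the 9 genes was 18.7%.

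**Figure D4:**
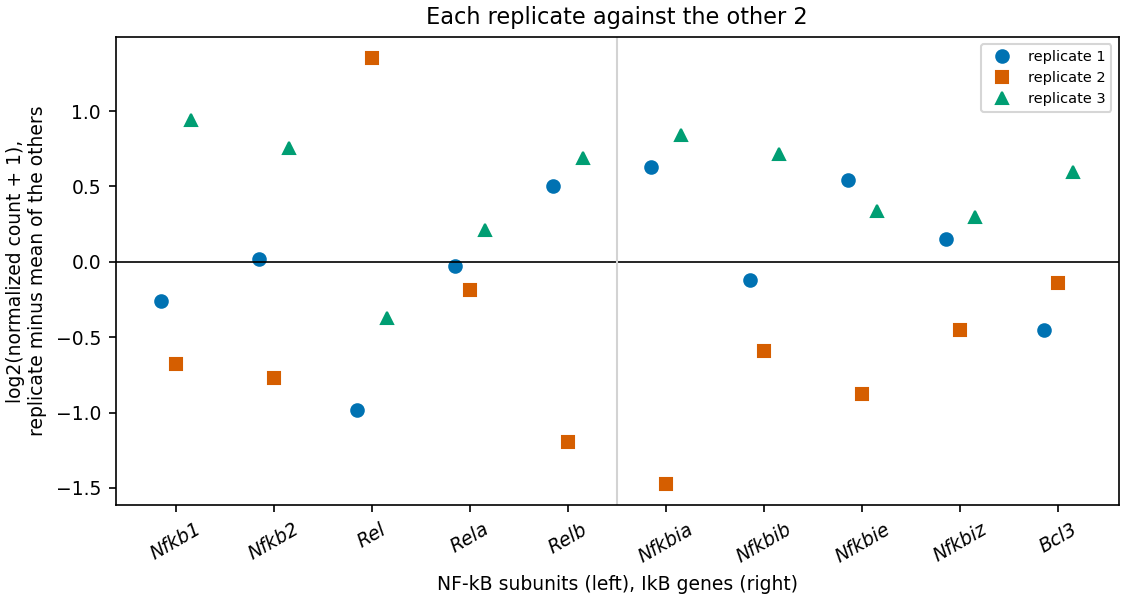
Difference in log2(normalized count + 1) between each library and the mean of the other 2, for the 5 subunit genes (left) and the 5 IkB genes (right). The squares of replicate 2 lie below 0 for the 9 detected genes, down to −1.47 for Nfkbia, and above 0 at 1.35 for Rel.

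Pairs of libraries were compared gene by gene on the recovered reads, which compares libraries and not conditions and covers counting error only. Between replicates 1 and 2 the exact binomial test with Benjamini-Hochberg adjustment separated 9 of the 10 genes, against 69.1% of all genes tested. Of these, 8 were lower in replicate 2 (33.1% of all genes were), Rel was higher (36% of all genes were), and Bcl3 did not pass (adjusted p = 0.0832, exact binomial test). Between replicates 1 and 3, 7 of the 10 genes passed, against 52% of all genes, and all 7 were higher in replicate 3, against 26.5%, while 0 were lower there, against 25.5%. Those that did not pass were Relb, Nfkbie and Rel, with adjusted p of 0.0917, 0.388 and 0.606 by the exact binomial test. Between replicates 2 and 3 all 10 genes passed, against 62.6% of all genes. In that pair 9 were higher in replicate 3 (30.5% of all genes were), and Rel was lower (32.1% of all genes were), by an exact binomial test with an adjusted p of 0.0287. Rela passed in all 3 pairs, with differences of 1.20-fold or less, and the adjusted p between replicates 1 and 2 was 0.00678 (exact binomial test). Shares of this size over all genes show that most genes of these deep libraries differ by more than counting error.

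Rel went the other way, with its highest level in replicate 2. The genes with the most similar centred log2 profile among 9990 genes that averaged 100 normalized counts or more were Adam12 (545, 1652 and 737 normalized counts, root mean square difference 0.017) and Slc6a17 (1231, 3414 and 1599, difference 0.035). Within 0.1 there were 33 genes (0.330%). As Rel rests on 10 reads in replicates 1 and 3, its own profile is known with an error of about 31.6% there.

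The kinases upstream of the IkB proteins had smaller differences between libraries, with a median log2 SD of 0.15 against 0.51 for the 9 detected NF-kB genes. All 6 genes of the IKK complex and its relatives were detected, and their median difference in replicate 2 was −0.02 on the log2 scale. Replicate 3 was the highest library for 4 of the 6, against 27.9% of all detected genes, with a median difference of 0.10 there. Ikbkg, the scaffold of the IKK complex, was measured at 2956, 2971 and 3185 normalized counts, and Map3k14, which encodes NIK, at 184, 203 and 222. Ikbke, which encodes an IKK-related kinase, was the 1 gene of the 6 with a more than 2-fold range, against 22% of all detected genes. It was measured at 1158, 660 and 1659, lowest in replicate 2. Chuk, which encodes the kinase IKKα, was highest in replicate 2, at 1048, 1640 and 940.

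The 17 receptors and proximal adaptors were all detected, and the median in replicate 2 was −0.03. Of them 7 were lowest in replicate 2, 7 in replicate 1 and 3 in replicate 3, against 37.3%, 34.5% and 28.3% of detected genes. The highest library was replicate 3 for 9 of the 17, against 27.9% of all detected genes, with a median difference of 0.11 there. A more than 2-fold range was found for 3 of them, Tlr2, Il1r1 and Ripk1, against 22% of all detected genes. Tlr2, a receptor for bacterial lipoproteins, was lowest in replicate 2 at 2714, 979 and 4575 normalized counts. Il1r1, the receptor of interleukin 1, was highest there at 735, 1309 and 584. The adaptor Myd88 was measured at 672, 767 and 875.

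Among 11 negative regulators other than the IkB genes above, all were detected and the median in replicate 2 was −0.20. Of these 6 were lowest in replicate 2, against 37.3% of all detected genes, and 4 were highest in replicate 3, against 27.9%. Nfkbid, the gene of a further nuclear IkB protein, was the 1 gene of these with a more than 2-fold range, against 22%. It was measured at 46.0, 14.1 and 26.1 normalized counts. The deubiquitinase gene Cyld stayed within 1.26-fold, at 1013, 912 and 1153.

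Known NF-kB target genes had the lowest median of these lists in replicate 2. Of 20 such genes 19 were detected, and the median difference in replicate 2 was −0.98 on the log2 scale. Of the 19, 12 had a more than 2-fold range, against 22% of all detected genes, and 15 were lowest in replicate 2, against 37.3%. Traf1, an adaptor of tumour necrosis factor receptors, was measured at 189, 16.2 and 535 normalized counts. Tnfaip3, which encodes the deubiquitinase A20, was measured at 1349, 538 and 1853, and Birc3, a ubiquitin ligase of the same receptor complexes, at 750, 495 and 992. In these 3 genes, as in Nfkbia, replicate 3 was the highest. That held for 10 of the 19 genes, against 27.9% of all detected genes, while 8 were highest in replicate 1, against 31.5%. Those 8 included the chemokine genes Ccl5, at 851, 38.8 and 735 normalized counts, and Cxcl2, at 20651, 1889 and 10878. Csf2 held 2 reads in replicate 2 and was not detected. The exceptions that were not lowest in replicate 2 were Il6, Tnfaip2, Lcn2 and Irf1. Il6 was measured at 788, 1430 and 1491 and Lcn2 at 255, 256 and 519. Lcn2 was nearly equal in replicates 1 and 2, and with TMM scaling 16 of the 19 genes, Lcn2 included, were lowest in replicate 2. The list was drawn up with the low values of replicate 2 known, so its count is no independent evidence of a direction.

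**Figure D5:**
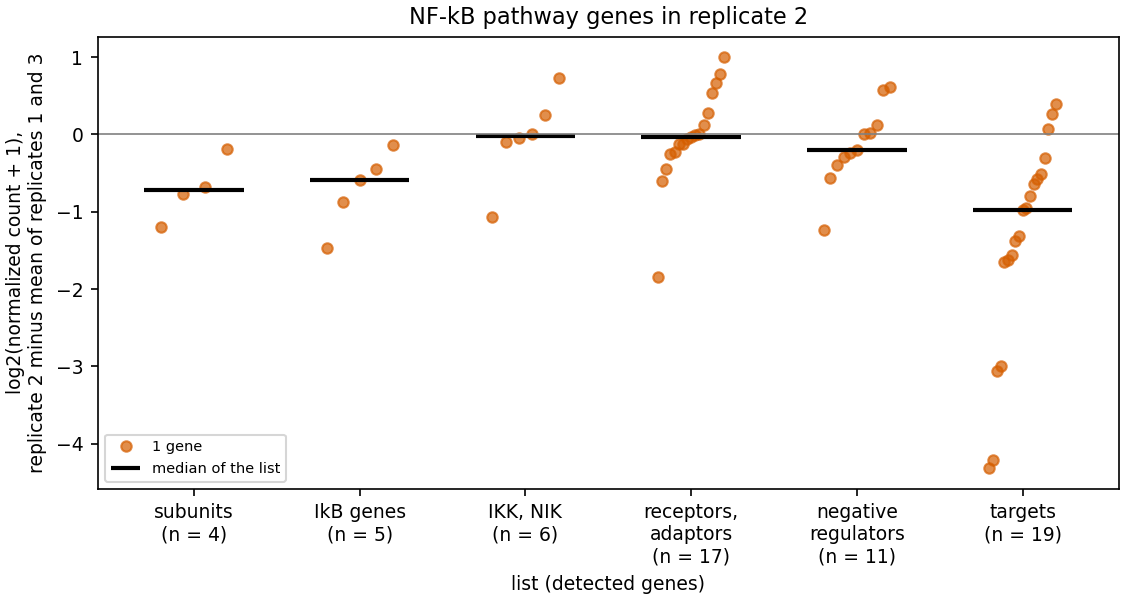
Difference in log2(normalized count + 1) between replicate 2 and the mean of replicates 1 and 3 for the detected genes of 6 lists, 1 point per gene, with a bar at each median. The medians of the kinases and of the receptors and adaptors lie near 0 (−0.02 and −0.03), and that of the target genes at −0.98.

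Markers of cell types moved between the libraries too. All 9 fibroblast markers were detected and summed to 481415, 489494 and 743860 normalized counts. Their median difference in replicate 2 was −0.079 on the log2 scale, and Pdgfra was highest in replicate 2. Of the 9, 4 were lowest in replicate 2 and 5 in replicate 1, against 37.3% and 34.5% of all detected genes. Replicate 3 was the highest library for 6 of the 9 fibroblast markers, against 27.9% of all detected genes, and their median difference there was 0.40. The 2 with a more than 2-fold range (22% of all detected genes had one) were Lum and Dcn, proteoglycans of the dermal matrix. Both were lowest in replicate 2, Lum at 5073, 289 and 1164. Of 10 leukocyte markers 3 were detected (Cd68, Lyz2 and Csf1r), the list summed to 208, 285 and 861, the T cell gene Cd3e was at 0 in every library, and Ptprc, which defines leukocytes, held at most 2 reads. The 6 keratinocyte markers summed to 242, 152 and 133, with Krt15 and Krt1 at 0 and Krt5 and Krt14 at no more than 2 reads. The 2 detected ones, Dsp (161, 113 and 98.4) and Krt10 (80.8, 39.5 and 32.0), held nearly all of that sum. The 5 endothelial markers summed to 90.3, 244 and 55.7, of which Tek made up 185 in replicate 2 and Cdh5 held at most 1 read. Egfl7, the 1 detected, was measured at 69.5, 53.6 and 49.8. Lyz2, at 123, 62.7 and 601, held most of the leukocyte sum of replicate 3, where 8 of the 9 detected NF-kB genes were highest. Without Lyz2 that sum was 84.2, 223 and 260, still highest in replicate 3. Laptm5 (36.7 in replicate 3), Tyrobp, Itgam and Cd52, none of them detected, were also highest there. Cd68 and Csf1r were highest in replicate 2 and Ptprc in replicate 1. Without Tek the endothelial sum was 83.4, 58.5 and 53.3, so its high value in replicate 2, where Rel was highest too, came from that 1 gene. The part of these cell types in the levels of the NF-kB genes was not tested, and fewer cells of a type cannot be told apart from less RNA per cell in such bulk samples.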

How the data were processed

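Per the labels and the study's methods, the authors made stranded mRNA libraries, sequenced 50 bp single-end reads, aligned them to mm10 with TopHat2 2.0.13 and counted unique reads per gene with HTSeq 0.5.3p3. The strand setting and the gene annotation are not given in the sources used here. As deposited, the signal values are normalized counts: the authors had scaled each library's reads by 1 size factor. Of the 43472 rows, 27 carry names turned into dates. Left out were 3 more per-sample columns, which matched no sample analysed here.

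Read counts were recovered by dividing by the value of 1 read, and 100% came out whole within 0.001. Means and SDs refer to normalized counts, log2 values to a pseudocount of 1, and n to the labelled replicates. For each pair of libraries, genes with 10 or more reads in it were tested by the exact binomial test (two-sided), adjusted by Benjamini-Hochberg over all of them at 0.05. The pair test, the range count and the log2 difference were tested on simulated data that held counting error only. Those data had no spread between replicates, while the common biological coefficient of variation of these libraries was 32.0%. The edgeR estimate was tested on simulated data with spread between replicates. edgeR 4.0.16 (R 4.3.3) gave TMM factors and dispersions. The remaining steps ran in Python 3.11.15 (pandas 2.3.3, scipy 1.17.1, numpy 2.4.6), with figures from matplotlib 3.10.9. Positions, exons and lengths came from GENCODE M21 (GRCm38, which is mm10) and promoters from RefSeq (GRCm38.p6).

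The members and the gene lists were chosen with earlier results of these data known. Genes named were the 10 members, the genes of the lists, and the 2 genes most like each of the 2 members with the largest log2 range. Alternatives were other scalings (equal totals, TMM), pseudocounts, fold limits, lengths and filters, and each replicate left out. The scalings for the count highest in replicate 3 and the longest transcript for the shares and for the ratio of summed inhibitors to subunits were added after the data were seen.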

Additional observations from a re-analysis of the deposited data

How the results depend on the processing

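With each replicate left out in turn, the number of members with a more than 2-fold range ran from 0 to 4 and was 0 without replicate 2 and 2 without replicate 3, the median log2 difference ran from −0.16 to 0.40 in replicate 1, where it turned negative without replicate 2, from −0.87 to −0.40 in replicate 2, and from 0.16 to 0.87 in replicate 3, with 0.16 without replicate 2. The median biological coefficient of variation ran from 18.7% without replicate 2 to 33.6%. The count with a more than 2-fold range was 7 at a 1.5-fold limit (48.8% of all detected genes) and 2 with libraries scaled to equal totals (22.6%), where Nfkb1 and Nfkb2 fell short of the limit. With no filter on low values 2 of 10 members were lowest in replicate 1 (28.0% of all genes with reads). With a more than 2-fold difference required as well, 3 of 10 members differed between replicates 1 and 2 (20.6% of all genes), 0 between replicates 1 and 3 (9.40%), and 5 between replicates 2 and 3 (16.6%). The ratio of Nfkb2 to Nfkb1 became 1.64, that of the classical inhibitors to the subunits 1.36 (1.73 with the union of exons) and the share of Nfkb1 became 18.0% with the longest transcript. Replicate 2 remained the lowest library for 8 members and replicate 3 the highest for 8 under both other scalings, which moved the median gene of a library by between −0.055 and 0.047 on the log2 scale. No paired analysis was possible because 1 condition is labelled, so the replicate numbers pair no groups. Depth limits Rel, with 10 reads in 2 libraries.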
